A study of Mus musculus with 2 samples.

Results

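The regions described here are 1509 distal DNA elements of activated mouse T-helper 2 (Th2) cells that carry a STAT palindrome with a 3-base spacer and no AP-1 site. The rule that picks them uses position and sequence and no measured value, though the rule itself was set with earlier results of these data known. They come from the 18431 elements in the authors' deposited table of a STARR-seq experiment. Of the 18414 elements on assembled chromosomes, 12753 had a midpoint more than 1000 bp from any start of a protein-coding transcript in GENCODE M21. Exclusion of the exons of those transcripts left 12282 elements, a GC content under 60% left 11837, and soft-masking of under 50% of the bases left 10669. Of these, 6483 held no AP-1 site, defined as an exact TPA response element (TGACTCA or TGAGTCA, which are reverse complements). The last step kept the 1509 with TTCNNNGAA, which reads the same on both strands in its fixed letters. The member nearest to a coding start was 1004 bp away and the nearest element left out for its distance was 981 bp away. The corresponding values were 59.8% and 60% for GC content and 49.3% and 50% for soft-masking.

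STARR-seq places genomic fragments in a reporter plasmid inside the transcribed unit, so that the RNA made from a fragment reads out its own activity as an enhancer. The labels give fragment sizes of 200 to 400 bp. Elements can be wider than this, so sites of the same element need not have lain on the same fragment. Primary Th2 cells of the mouse strain C57BL/6NJ were transiently transfected with the plasmid pool. All cells had received anti-CD3e (0.25 ug/mL) and anti-CD28 (1 ug/mL) for 3 days, antibodies that trigger the T-cell receptor and its costimulator. They had also received anti-interferon-gamma (2 ug/mL) for 4 days, and the cytokines interleukin-2 (4 days) and interleukin-4. The series has 1 group with 2 output libraries, labelled as biological replicates of the same donor record, and the sex, age and developmental stage of the animals were not recorded. The deposited table combines both libraries, so no value per library, no spread between libraries and no read depth could be given, and each fold stands without an error. It holds no transcript levels, so the labelled cell type could not be set against marker genes. Every element in the table had a q-value below 0.01. Each fold and q-value given for 1 element comes from the authors' deposited table. No source used here states the logarithm's base or the denominator, and values are read as log2 of output RNA over input DNA. Positive and negative refer to the sign of this value.

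STAT proteins are transcription factors that lie idle in the cytoplasm until a cytokine receptor's JAK kinases phosphorylate them, after which they pair and bind palindromes built from a TTC arm and a GAA arm. Most STAT dimers, among them STAT3 and STAT5, favour a spacer of 3 bases, the gamma-activated sequence, whereas STAT6 favours 4. In T cells interleukin-2 acts mainly through STAT5 and interleukin-4 through STAT6, and the repressor BCL6 binds sequences that resemble the STAT5 site. AP-1, a dimer of FOS and JUN proteins, is switched on by the T-cell receptor.

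The site and its surroundings are shown for the 6 positive members with the lowest q-values, named by the host or nearest gene, on the plus strand of mm10, with the 9 bases of the palindrome in capitals and 15 bases to each side. Where a member had several sites, the one nearest to its midpoint is shown.
Cx3cr1 intron: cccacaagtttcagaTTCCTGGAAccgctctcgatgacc
Pcbp1: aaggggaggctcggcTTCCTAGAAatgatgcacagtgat
Jarid2: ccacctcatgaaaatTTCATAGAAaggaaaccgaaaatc
2010111I01Rik intron: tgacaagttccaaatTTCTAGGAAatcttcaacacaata
Akr1c19: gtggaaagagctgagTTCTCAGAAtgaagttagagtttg
Slfn2: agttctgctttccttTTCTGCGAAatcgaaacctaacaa

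These windows lie at chr9:120002125-120002163, chr6:86570921-86570959, chr13:44507294-44507332, chr13:63223648-63223686, chr13:4257128-4257166 and chr11:83078227-83078265, in the order shown. In the same layout, 5 of the 6 negative members with the lowest q-values had these sites.
Cldn34d intron: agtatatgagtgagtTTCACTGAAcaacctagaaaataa
Pik3r1 intron: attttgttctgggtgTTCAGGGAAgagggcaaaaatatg
Gsta4: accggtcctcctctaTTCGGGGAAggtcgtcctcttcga
Fosb: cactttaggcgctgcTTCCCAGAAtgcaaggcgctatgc
Gm11634: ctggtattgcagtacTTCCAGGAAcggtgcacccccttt

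The negative windows lie at chrX:76598666-76598704, chr13:101702360-101702398, chr9:78175456-78175494, chr7:19301004-19301042 and chr11:101605004-101605042. A further set shows members near genes of low q-value in 5 gene lists described further on, all of them positive. Each is named by its list gene, which need not be the nearest gene.
Stat4 intron: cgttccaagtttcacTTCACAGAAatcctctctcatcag
Socs3: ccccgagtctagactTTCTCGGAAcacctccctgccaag
Ptpn6 (Atn1 intron): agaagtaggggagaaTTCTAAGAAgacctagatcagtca
Foxp3 intron: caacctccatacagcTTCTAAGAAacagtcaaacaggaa
Ccr8: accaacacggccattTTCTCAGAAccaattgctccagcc
Tnfrsf18 and Tnfrsf4: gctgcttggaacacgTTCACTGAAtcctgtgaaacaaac
Oas3 (Oas1b intron): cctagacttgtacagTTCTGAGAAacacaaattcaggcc

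These lie at chr1:52053128-52053166, chr11:117965725-117965763, chr6:124750572-124750610, chrX:7584241-7584279, chr9:120074836-120074874, chr4:156022149-156022187 and chr5:120819290-120819328. The 3 middle bases, the spacer, vary from site to site, and the form with a pyrimidine (C or T) first and a purine (A or G) last appears in each set.

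Most members had a positive fold. All elements had a q-value below 0.01, so shares and folds describe called elements only. Sequences with the site that missed this limit are not counted. Of the 1509 members, 1408 had a positive fold and 101 a negative one, which is 93.3% positive (exact 95% binomial interval 91.9 to 94.5). The background was 71.5% over the whole table, which includes promoters, and 87.9% among the 4974 distal elements that met every other limit but lacked the site (87.0 to 88.8). Among the 601 elements with only the 4-base spacing of STAT6 it was 90.5% (87.9 to 92.7), and among the 4373 with neither spacing 87.6%. Distal elements with both the 3-base-spacer site and the AP-1 site numbered 1050, of which 96.9% were positive (95.6 to 97.8). The intervals cover counting error over elements only. No test was run on these differences, because elements are not replicates of a condition and neighbouring or related elements share sequence.

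Over all widths together, the median fold of positive members was no higher than that of positive elements without the site. Positive members had a median log2 fold of 1.19 (order-statistic 95% interval 1.17 to 1.24), with quartiles at 0.89 and 1.72 and a range from 0.47 to 8.29. The corresponding median was 1.24 (1.22 to 1.26) in positive distal elements without the site and 1.2 in all positive elements of the table. A log2 fold of at least 1 was reached by 916 members, 60.7% of them, where 59.2% of the distal elements without the site and 46.5% of the whole table did so. A log2 fold of at least 2 was reached by 245 members (16.2%, against 17.1% and 13.5%). The largest folds were rarer among positive members, with 51 of 1408 (3.62%) at 3 or more against 6.49% of the positive elements without the site. Widths differed between these sets, as given further on. Up to 300 bp the median log2 fold of positive elements was 1.43 with the site and 1.34 without it. From 325 to 450 bp these medians were 1.25 and 1.24, from 475 to 600 bp 1.16 and 1.2, and above 600 bp 1.1 and 1.12. The order of the medians thus differed between bands of width. No interval was computed for them, and the part of width in these folds was not tested. A q-value below 0.001 was met by 990 members (65.6%), against 57.4% and 60.7%. The 101 negative members ranged from -2.87 to -0.55 with a median of -1.06, and 4 of them were at -2 or below.

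**Figure D1:**
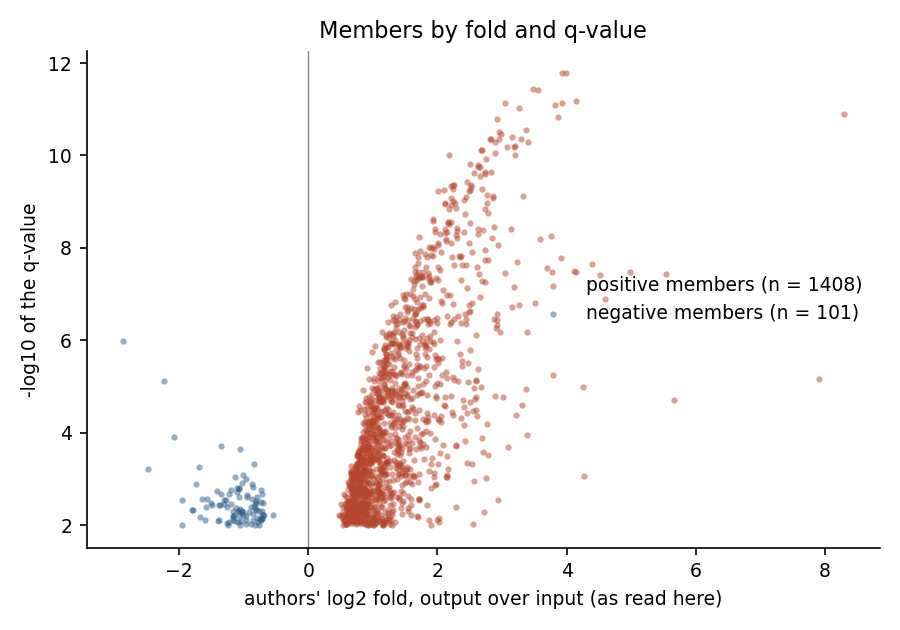
Each point is 1 of the 1509 members, with the authors' log2 fold on the horizontal axis and -log10 of the authors' q-value on the vertical axis. The 1408 positive members (red) reach q-values down to 1.67e-12, and the 101 negative members (blue) down to 1.02e-06.

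Members were wider than distal elements without the site, and a wider element has more room for a 9-base match. The median width was 500 bp in members and 375 bp in the others, and the median GC content was 46% and 47.3%. Within every band of width the share of positive elements was higher with the site. In elements up to 300 bp wide it was 97.7% of 301 members (exact interval 95.3 to 99.1) and 89.6% of 1994 elements without the site (88.2 to 90.9). Above 600 bp it was 91.0% of 431 members (87.8 to 93.5) and 84.5% of 873 others (82.0 to 86.9). In the bands between, it was 93.6% (90.5 to 95.9) against 88.5% (86.6 to 90.3) from 325 to 450 bp and 92.3% (89.4 to 94.7) against 86.6% (84.2 to 88.8) from 475 to 600 bp. The intervals of both sets overlapped in none of the 4 bands. The same order held in bands of GC content, from 93.6% against 91.4% under 42% GC, where the intervals overlapped, to 90.5% against 84.1% from 50% to under 60%.

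**Figure D2:**
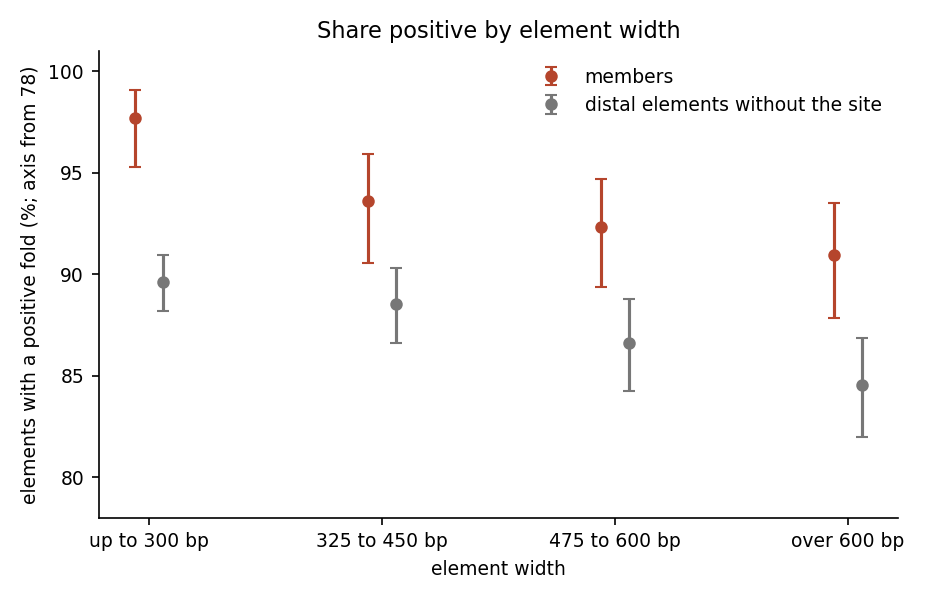
Share of elements with a positive fold (vertical axis, percent, starting at 78) in 4 bands of element width, for members (red) and distal elements without the site (grey), with exact 95% binomial intervals. Members lie higher in each band, from 97.7% against 89.6% in the narrowest to 91.0% against 84.5% in the widest.

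In positive elements the palindrome was more frequent with 3 bases between its arms than with any other spacing searched. With TTC and GAA arms held fixed, the spacer was varied from 0 to 10 bases over the 6483 distal elements without AP-1, of which 5781 were positive and 702 negative. The 3-base spacer occurred in 24.4% of positive elements (exact interval 23.3 to 25.5). The 9 other spacers from 1 to 10 bases occurred in 12.2% to 15.2%. Among negative elements the 3-base spacer was in 14.4% (11.9 to 17.2) and the other 9 in 10.4% to 12.7%. In 8696 regions of the same widths 5 kb to either side, held to the same limits and overlapping no element, the site was in 12.6% (11.9 to 13.3). The other 9 spacers were in 11.7% to 13.4% of them. Within these limits the regions were not matched to the elements for GC content or soft-masking. A spacer of 0 bases, TTCGAA, contains CpG and was rarer throughout, at 1.94% of positive and 4.42% of negative elements. The palindromes with spacers of 1, 2 and 4 to 10 bases were positive in 89.5% to 92.1% of their elements.

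The 4-base spacing, the STAT6 form with 4 bases between TTC and GAA, was in 13.6% of positive elements (12.7 to 14.5), 10.4% of negative ones and 11.8% of the regions 5 kb away. In positive elements this lay between the lowest and highest of the other spacings. Arms turned outward, GAANNNTTC, were in 11% of positive elements, 10.5% of negative ones and 11.1% of regions. Arms in the same direction, TTCNNNTTC, were in 41.3% of positive elements (40.1 to 42.6), 29.2% of negative ones (25.9 to 32.7) and 31.2% of regions (30.2 to 32.2), or 1475, 937 and 1050 times per megabase. Elements with this direct repeat were positive in 92.1% (91.0 to 93.1), against 87.2% without it, a gap near the palindrome's. The direct repeat is not a palindrome, but it is not a neutral comparison word either. On its other strand it lies within every match to the interferon-stimulated response element, as searched further on. Among distal elements without the palindrome, that response element was in 18.3% of positive and 5.16% of negative ones. Its part in the gap of the direct repeat was not tested. Per megabase of sequence the 3-base-spacer site occurred 698 times in positive elements, 364 times in negative ones and 330 times in the regions 5 kb away. Whether those regions were among the ones the authors tested is not known here.

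**Figure D3:**
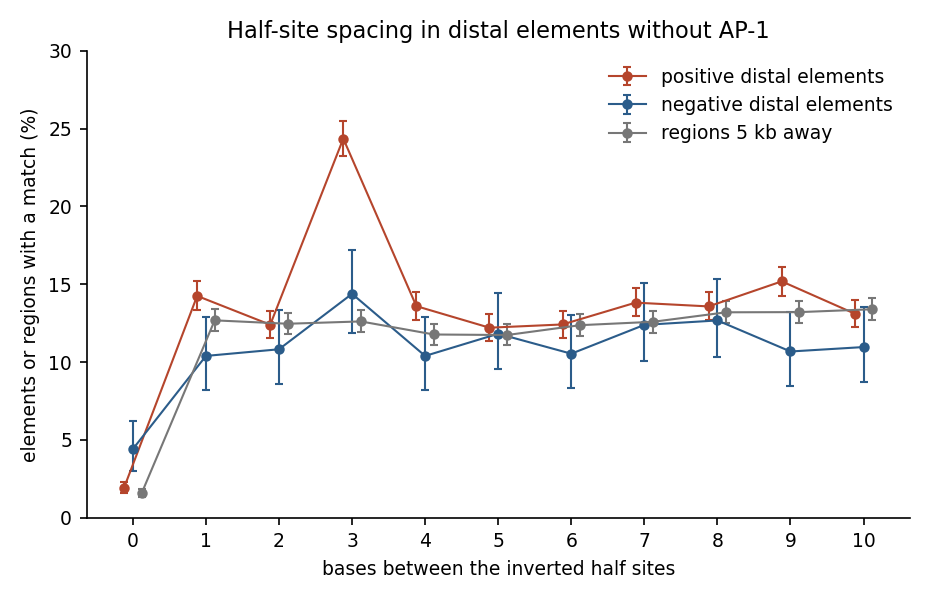
Share of positive distal elements without AP-1 (red, 5781), negative ones (blue, 702) and regions 5 kb away (grey, 8696) that hold inverted TTC and GAA arms, against the number of bases between the arms. Bars are exact 95% binomial intervals, and the positive elements stand out at 3 bases, at 24.4%, with the other spacings from 1 to 10 at 12.2% to 15.2%.

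Sites lay near the middle of positive elements. Their median distance from the midpoint was 72.3 bp in positive members (1708 sites) and 122 bp in negative ones (113 sites), in elements of median width 475 and 550 bp. As a share of the distance from midpoint to edge these medians were 0.321 and 0.459. Over all positive elements of the set without AP-1, the density of the site was 1190 per megabase within 25 bp of the midpoint and 377 from 200 to 300 bp. For spacers of 2 and 5 bases the corresponding values were 349 and 267, and 370 and 252. The 4-base spacing went from 453 to 257. In negative elements the 3-base spacing was at 370 within 25 bp and 375 from 200 to 300 bp. Members with a site within 100 bp of the midpoint numbered 989 and were positive in 95.1% (exact interval 93.6 to 96.4), with a median log2 fold of 1.22 in the positive ones. The other 520 were positive in 89.8% (86.9 to 92.3), with a median of 1.13. Median widths of these sets were 425 bp and 600 bp. Narrow members were also more often positive, and the part of width in this difference was not tested.

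**Figure D4:**
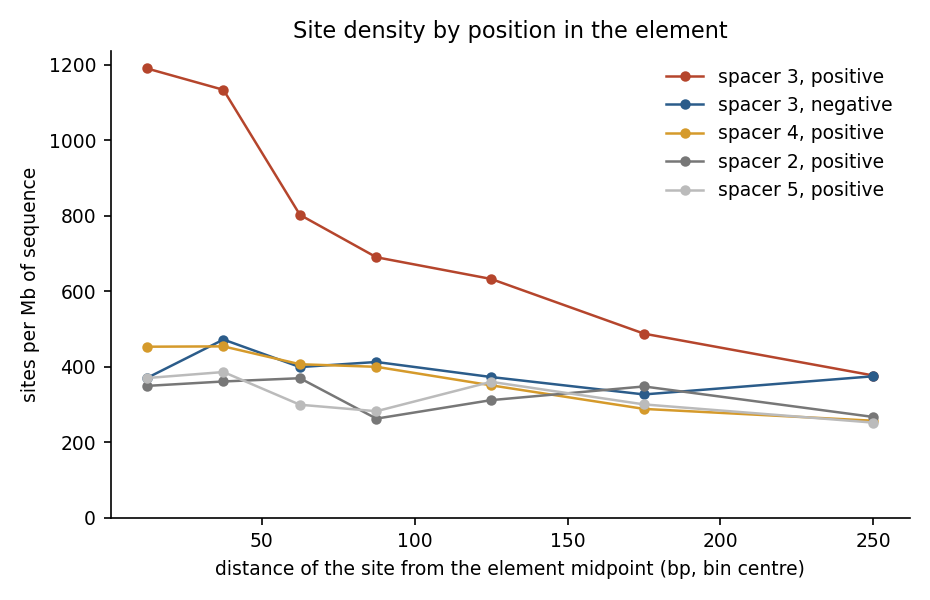
Sites per megabase of sequence (vertical axis) against distance from the element midpoint in bp (bin centres), in distal elements without AP-1. The 3-base spacing in positive elements (red) falls from 1190 to 377 per megabase, while spacers of 2 and 5 bases (greys), 4 bases (gold) and the 3-base spacing in negative elements (blue) stay at or below 472 in every bin.

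The letters of the spacer differed between positive elements and other sequence. Read without regard to strand, the 3 spacer bases give 32 words, of which 30 occurred in a member. The usual STAT consensus has a pyrimidine first and a purine last, which covers 8 words. In 4 of these the outer spacer bases are also complementary, here called symmetric: TTCTCAGAA, TTCCAGGAA, TTCTAAGAA and TTCCCGGAA, each with its reverse complement. Words with complementary outer bases in the order A and T or G and C, such as TTCACTGAA, are counted among the other 24. Symmetric words made up 40.5% of the 1708 sites in positive members, 28.3% of the 113 sites in negative members and 21.9% of the sites in the regions 5 kb away. The other 4 pyrimidine-to-purine words made up 26.2%, 20.4% and 20.6%. The remaining 24 words made up 33.4%, 51.3% and 57.4%. Per megabase, symmetric sites occurred 283 times in positive elements against 72.3 in the regions, a ratio of 3.91. The ratio was 2.69 for the other pyrimidine-to-purine words and 1.23 for the 24 remaining words. In negative elements the 3 ratios were 1.43, 1.09 and 0.986.

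**Figure D5:**
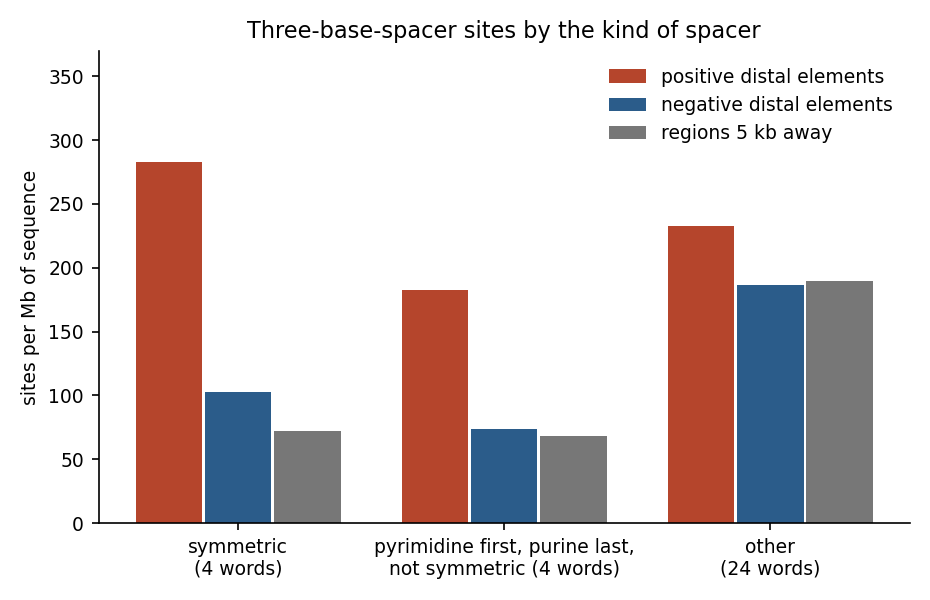
Sites per megabase (vertical axis, from 0) for 3 kinds of spacer in positive (red) and negative (blue) distal elements without AP-1 and in regions 5 kb away (grey). Symmetric spacers stand at 283, 103 and 72.3 per megabase, and the 24 words that are not of the pyrimidine-to-purine form at 233, 187 and 189.

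Among single words, TTCTCAGAA was in 262 members, of which 95.8% were positive (exact interval 92.6 to 97.9). TTCCAGGAA was in 253, of which 97.2% were positive (94.4 to 98.9), and its density in positive elements was 4.50 times that in the regions 5 kb away (104 against 23.2 per megabase). TTCCCAGAA was in 164 members (92.1% positive), TTCTAAGAA in 158 (93.7%), TTCCAAGAA in 142 (97.2%) and TTCCTAGAA, which matches the core known for BCL6, in 130 (97.7%). Lower shares were seen for TTCACTGAA, with 50 of 60 members positive (83.3%, 71.5 to 91.7), TTCAGGGAA, with 48 of 57 (84.2%, 72.1 to 92.5), and TTCAATGAA, with 14 of 20 (70.0%, 45.7 to 88.1). The CpG-bearing TTCCCGGAA was in 26 members, 22 of them positive, and had 1 match in the regions 5 kb away. TTCCGAGAA, which also has a CpG, was in 25 members, 24 of them positive, with 3 matches in the regions. Intervals of the less frequent words are wide, and words were singled out after their values were seen.

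By member, 664 had a symmetric site and 95.2% of these were positive (93.3 to 96.7), while 845 had none and 91.8% were positive (89.8 to 93.6). The 478 members with only words outside the pyrimidine-to-purine form were positive in 89.7% (86.7 to 92.3), near the 87.9% of distal elements without the site. Median log2 folds of the positive members were 1.21 with a symmetric site, 1.27 with an asymmetric pyrimidine-to-purine site and no symmetric one, and 1.14 with other words only. Beside the arms, the base next to TTC on its outer side was T at 35.3% of arms in positive members and 32.9% in the regions, and the base before that was A at 31.9% and 28.1%. In negative members (221 arms) these were 33.5% and 24.9%.

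Most members had a single site. There were 1234 members with 1 site, 242 with 2, 29 with 3 and 4 with 4 sites. The share of positive members was 92.7% with 1 site (91.1 to 94.1) and 96.0% with 2 or more (93 to 98), and the intervals overlapped. Members with 2 or more sites were wider, with a median of 550 bp against 475 bp. By width, shares are given for 2 or more sites first and 1 site second. Up to 300 bp they were 100% of 34 and 97.4% of 267, and from 325 to 450 bp 98.1% of 53 and 92.8% of 306. From 475 to 600 bp the shares were 92.3% of 78 and 92.4% of 340, and above 600 bp 96.4% of 110 and 89.1% of 321. The median log2 fold of positive members was 1.21 with 1 site and 1.17 with 2 or more. Neighbouring sites within a member numbered 312 pairs, with a median of 94 bp between starts, and 115 pairs (36.9%) were within 60 bp. In the regions 5 kb away 32 of 125 pairs (25.6%) were that close. Starts 20 to 29 bp apart, about the span over which STAT5 dimers can pair into tetramers, were found in 36 pairs, against 21 at 30 to 39 bp and 11 at 10 to 19 bp. A further 25 pairs were 40 to 49 bp apart. In the regions these counts were 11, 4, 5 and 7. Of the pairs within 60 bp, 36 of 115 in members and 11 of 32 in regions were 20 to 29 bp apart, which are similar shares.

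All 4 members with 4 sites were positive. Their log2 folds were 4.15 near Akr1c19, 2.89 in an intron of Sik3, which encodes a salt-inducible kinase, 2.02 near Clec16a and 0.89 near Lrrc49. The Sik3 member is 250 bp wide at chr9:46116901-46117150, and its 4 sites lie in a repeated unit with starts 43, 43 and 36 bp apart. The stretch from the first to the last site, at chr9:46116967-46117097, is printed on the plus strand with the 4 palindromes in capitals.
Sik3 intron: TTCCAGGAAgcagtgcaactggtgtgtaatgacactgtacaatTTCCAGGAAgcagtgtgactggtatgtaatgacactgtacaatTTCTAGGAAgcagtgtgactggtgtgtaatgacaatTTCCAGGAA

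None of the bases of the Sik3 member was soft-masked, and 3 of its 4 palindromes read TTCCAGGAA. The 4 sites are counted as 1 member.

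Sites of other factors were also counted in members, on both strands. Shares in regions are those of the 8696 regions 5 kb away, which match the widths of all 6483 elements without AP-1 and so are narrower than members at the median, as are the distal elements without the palindrome. The part of width in these shares was not tested. The cyclic AMP response word TGACGT, bound by CREB and ATF factors, was in 15.3% of positive and 3.96% of negative members, in 12.8% of distal elements without the palindrome and in 3.76% of regions. Members with TGACGT numbered 219, of which 98.2% were positive, against 92.5% of those without it. The median log2 folds of the positive ones were 1.39 and 1.18. The order was the same in distal elements without the palindrome, with TGACGT in 14.04% of positive and 4.16% of negative ones. Of those elements with TGACGT, 96.1% were positive. The interferon-stimulated response element, searched as 2 GAAA words with 2 bases between and the site of interferon regulatory factors, was in 18.5% of positive and 13.9% of negative members, 16.7% of elements without the palindrome and 5.75% of regions. In 15.6% of members it shared no base with a STAT site. Members with it had a median log2 fold of 1.30 when positive, against 1.18.

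Words of lymphoid factors were common. RUNX, which guides T-cell lineages, has the core TGTGGT, found in 46.3% of positive and 40.6% of negative members, 35.6% of distal elements without the palindrome and 27.4% of regions. The ETS core GGAAGT was in 38.8% and 36.6% of members, 30.0% of elements without the palindrome and 23.9% of regions. This core can overlap the palindrome, and matches that shared no base with a STAT site were in 36.1% of positive and 33.7% of negative members. The positive members with GGAAGT had a lower median log2 fold, 1.11 against 1.26. NF-kB sites were in 15.1% of positive and 15.8% of negative members, 10.6% of elements without the palindrome and 6.41% of regions. GATA3 directs the Th2 fate, and the GATA words AGATAA or TGATAA occurred in 38.1% of positive members, 39.6% of negative members, 29.8% of elements without the palindrome and 38% of regions. The 4-base STAT6 spacing was in 17.2% and 15.8% of members, 12.1% of elements without the palindrome and 11.8% of regions. For these 5 motifs the interval of the positive share among members with the word contained the share among members without it.

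Some words had a higher share in negative than in positive members. The SP and KLF word GGGCGG was in 20.8% of negative and 9.73% of positive members, and 86.7% of the 158 members with it were positive (exact interval 80.4 to 91.6), against 94.1% without. In distal elements without the palindrome the order was the same, with GGGCGG in 14.5% of negative and 9.51% of positive ones. CCAAT, the NFY word, was in 56.4% of negative and 43.1% of positive members, with 91.4% of 664 positive (89.0 to 93.4, against 94.8% without). The NFAT word TGGAAAA was in 19.8% and 12.8%, with 180 of 200 positive. Without the palindrome the shares were close for both words, with CCAAT in 34.6% of negative and 34.9% of positive elements and TGGAAAA in 9.48% and 9.51%. The MAF word TGCTGAC was in 16.8% of negative and 11.4% of positive members, and the share positive among the 178 with it, 90.4% (85.1 to 94.3), had an interval that contained the 93.7% of those without. In elements without the palindrome the order for TGCTGAC was the opposite, 5.16% of negative and 9.72% of positive ones. The words CTTTGAT (TCF7 and LEF1), CAGCTG (E-box), GGTGTGA (T-box), GGAATG (TEAD), ATGCAAA (POU2F), and TTGCGCA or TTGCAAT (CEBP) were in 10.1%, 25.8%, 7.62%, 21.3%, 9.41% and 3.98% of members. The shares of positive members with these 6 words ran from 92.2% to 95%. Matches to GGAATG that shared no base with a STAT site were in 18.4% of members. Words that differ from the AP-1 site at 1 base were in 84.5% of members, 76.3% of distal elements without the palindrome and 65.9% of regions. The 234 members without any such word were positive in 91.9% (87.6 to 95), with a median log2 fold of 1.29 in the positive ones.

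Members were spread over 20 chromosomes, all but Y. Introns of protein-coding transcripts held 686 and intergenic sequence 823. Intronic members were positive in 94.0% and intergenic ones in 92.7%, with median log2 folds of 1.16 and 1.25 in the positive ones. The median distance to the nearest coding start was 27412 bp for positive and 22129 bp for negative members. Within 10 kb of a start 91.6% of 345 members were positive, and beyond 50 kb 94.3% of 507. There were 77 members with another member within 10 kb.

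Sequence relations among members were limited but touched the largest folds. By alignment at 80% identity over 100 bp, 142 members fell into 23 groups, the largest of 55 members on 20 chromosomes with a median log2 fold of 1.03, of which 49 were positive. A further near-identical match in the genome (at least 95% identity over at least 90% of the element) was found for 41 members, all positive, with a median log2 fold of 2.39 against 1.18 in positive members without one. No source used here says how the authors counted reads that fit several places, and its part in these folds was not tested. Of the 13 members with a log2 fold of 4 or more, 7 had such a match, and of the 51 at 3 or more, 15 had one. Without these 41 members 93.1% of 1468 were positive.

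The 5 members with the largest folds were near Gm8797 (log2 8.29, chr3:5860301-5860575), Vmn2r41 (7.91), Bcl2a1d (5.67), Dnah7b (5.55) and A530032D15Rik (4.99). All but the Gm8797 element had 1 to 7 near-identical matches elsewhere in the genome. Only the A530032D15Rik site, TTCCAGGAA, had the pyrimidine-to-purine form. The Gm8797, Bcl2a1d and Dnah7b elements were each related to 1 other member. The Gm8797 and Dnah7b elements shared sequence, since the 39 bases around their sites are exact reverse complements, and the Dnah7b element had 5 near-identical matches. Part of the Gm8797 element's sequence therefore recurs in the genome, although no match over the whole element passed the limits.

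The 10 positive members with the lowest q-values had log2 folds from 3.05 to 8.29, and none had a near-identical match within those limits. The highest of these folds was that of the Gm8797 element, part of whose sequence recurs in the genome. In 8 of the 10 at least 1 site had the pyrimidine-to-purine form, and 4 also held the 4-base spacing. The lowest q-value, 1.67e-12, belonged to 2 members. The first lay in an intron of Cx3cr1, a chemokine receptor gene, at chr9:120001876-120002425 (log2 3.99), and had 2 sites, TTCCTGGAA 6.5 bp from the midpoint and TTCTGGGAA. The second was intergenic, 44654 bp from the start of Pcbp1, which encodes an RNA-binding protein, at chr6:86570651-86571300 (3.93). The Akr1c19 member with 4 sites (chr13:4256826-4257525) had 4.15, and an intergenic member 13113 bp from the start of Slfn2, a Schlafen family gene required for T-cell quiescence, had 3.93 with 3 sites (chr11:83077876-83078575). A 325 bp member in an intron of Osbpl9, an oxysterol-binding protein gene, had 3.05 with 1 site, TTCCAGGAA, 16 bp from the midpoint. An intron of 2010111I01Rik held a member at 3.56. The Gm8797 element, already described, had q = 1.25e-11. Of the others, the Jarid2 element (3.47) held an interferon-stimulated response element, the Satb1 element (3.82), 329510 bp from that chromatin organiser's start, held 3 matches to the 4-base spacing, and the Olfr291 element had 3.27. Genes are named for position, since no contact of an element with a gene was measured.

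The 10 negative members with the lowest q-values had log2 folds from -2.87 to -0.84, with q-values from 1.02e-06 to 0.000888. In 4 of the 10 a site had the pyrimidine-to-purine form. The most negative was in an intron of Cldn34d on chromosome X (-2.87). An intron of Pik3r1, which encodes the regulatory subunit of PI3 kinase, held a member at -2.23. An intron of Pla2g4a, a phospholipase gene, held one at -2.47 and an intron of Inpp4b, a lipid phosphatase gene, one at -1.0. An intergenic member 8712 bp from the start of Fosb, an AP-1 subunit gene, had -1.05. Others were near Gsta4 (-1.35), Gm11634 (-0.84), Rnf130 (-1.68) and Arl11 (-1.13), and the Gm11634 element belonged to the related group of 55.

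Members lay within 50 kb of a start of 1836 of 21864 protein-coding genes (8.40%), and positive members near 1692 (7.74%). The lists were chosen with earlier results of these data known. Against this background, 10 of 25 genes of JAK and STAT signalling had a member, all positive. Over all members 93.3% were positive, and 87.9% of distal elements without the site, which also holds for the lists that follow. How many list genes had distal elements without the site was not counted. The density of elements of any kind near these genes is therefore not taken into account. Stat4, which signals for interleukin-12, had 1 in its own intron 44845 bp from the start (chr1:52052901-52053275, log2 3.29, q = 4.50e-11), with TTCACAGAA as its only palindrome. Tyk2, a JAK kinase gene, had members at 2.19 and 0.80, both in introns of its neighbours Pde4a and Cdc37. Il2rb, an interleukin-2 receptor chain, had 1 with 3 sites (1.50), in an intron of Tmprss6. The interval between Il4ra, the interleukin-4 receptor chain, and Il21r held 1 at 1.85, and an Il4ra intron another at 1.12. Il2ra, the interleukin-2 receptor alpha chain, had 1 at 2614 bp (0.57, q = 0.00230).

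Of 16 feedback genes, 5 had members, all 8 of them positive, with a median log2 fold of 1.71. These genes encode proteins that switch JAK and STAT signals off, and many are themselves induced by STATs. Socs3 had 1 member at 3448 bp (chr11:117965601-117965875, log2 2.46, q = 3.74e-10), with TTCTCGGAA 6 bp from the midpoint and the cyclic AMP word TGACGT. Socs1 had 3, at 1.72, 2.30 and 1.69, which also lay near the protamine genes Prm1 and Prm2. The phosphatase gene Ptpn6 had 1 at 2.01 (11886 bp away, in an intron of Atn1) and Ptpn2, another phosphatase gene, 1 in its own intron at 1.70. Cish, the first known member of this feedback family, had 2, at 1.35 and 1.22. The element at 1.35 lay 37576 bp away in an intron of Hemk1, and the other 11001 bp away.

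Of 30 interleukin-2 and STAT5 target genes, 14 had members, and all 18 distinct members were positive, with a median log2 fold of 1.59. The lowest q-value was in an intron of Foxp3, the regulatory T-cell factor, whose member lay 2085 bp from a start (chrX:7583951-7584425, log2 2.75, q = 1.20e-10). It held 3 sites, TTCTAAGAA, TTCTCGGAA and TTCTGAGAA, all of the pyrimidine-to-purine form. Tnfrsf18 and Tnfrsf4, costimulatory receptor genes side by side on chromosome 4, shared members at 1.94 and 0.74. Outside the rule of 4 genes a list, and chosen after their values were seen, Lif (2.44), the kinase gene Pim1 (1.89) and Gzmb, the granzyme B gene (2.00 and 0.98), also had members.

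Of 29 Th2 genes matched in the annotation, 12 had a member, and 13 of the 14 distinct members were positive (median log2 fold 1.30). Ccr8, a Th2 chemokine receptor gene, had 1 at 17464 bp (chr9:120074376-120074925, log2 2.74, q = 2.56e-10) with TTCTCAGAA. This member was nearer to Cx3cr1, 4771 bp from that gene's start. Ccr4, also a Th2 chemokine receptor gene, had 3, at 0.91 in its intron, at 1.54, and at 1.44 in an intron of Glb1. The cytokine genes Il4 and Il13 shared 1 member at 1.35, 24650 bp from Il4 and 42014 bp from Il13. It was intronic and nearest to Kif3a, 1262 bp from that gene's start. Il5 had 1 at 6981 bp (1.18), which was nearer to Rad50, at 6494 bp. The negative member was 43182 bp from Il1rl1, which encodes the interleukin-33 receptor (-1.17, q = 0.00632). Of 27 interferon response genes 5 had a member, which came from 3 distinct elements, all positive. Among them were one 41639 bp from Oas3 in an intron of Oas1b (2.66), and one shared by Psmb8, Psmb9 and Tap1 (1.40). The shared element was nearest to Tap2, 13850 bp away. Several lists share genes, such as Il2ra and Socs1, and neighbouring genes share elements, so the lists are not independent.

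Outside the lists, the genes with the most members within 50 kb were Gbp8, Disp1, Prm1 and Prm2, with 4 each. Gbp8, a guanylate-binding protein gene of the interferon response, had log2 folds of 2.31, 3.41, 2.16 and 1.58, and 3 of the 4 held both TTCCTAGAA and TTCCAGGAA. The members at 3.41 and 2.16 held the same words in the same order, TTCAGTGAA, TTCCTAGAA and TTCCAGGAA. Members near this gene are therefore not taken as independent. Disp1, a gene for the release of hedgehog ligands, had 3 positive members, at 0.65, 1.62 and 2.11, and a negative one at -0.97.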

How the data were processed

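The authors deposited 1 element table for both output libraries, derived from their alignments on mm10, per the deposited text lists. No aligner, caller or test is named there, and tool versions are not stated. The authors' deposited column of signed folds, read as log2 values, was made from these alignments by a step that no header or label records, with base and denominator unstated. The p-value and q-value are the authors' deposited linear values, with no -log10 scale. In all 18431 elements the width equalled end minus start plus 1, so starts count from 1. The table holds no read counts, so no filter or interval on depth was possible.

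Sequences came from GRCm38 p6 (the mm10 assembly, per the labels), with soft-masking as in RefSeq, and genes from GENCODE M21. Words were searched on both strands. Midpoints set an element's class. Regions 5 kb to each side were kept where they overlapped no element and met the same limits. Exact binomial and order-statistic intervals cover 95% and counting error only (scipy 1.17.1). Related sequences were found with blastn 2.17.0. The word search was tested on simulated data, where it found all planted sites. Named members follow a rule: the 10 positive and 10 negative members with the lowest q-value, the 5 with the largest fold, and up to 4 genes a list by the lowest q-value within 50 kb. The printed windows, from the first 6 of each sign and 2 genes a list in that order, were set after the values were seen. Some members under the rule are not reported here. The members and lists were chosen with earlier results of these data known. Leaving out a library was not possible, because the table has no value per library.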

Additional observations from a re-analysis of the deposited data

How the results depend on the processing

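Of 97 values recomputed under 10 alternative settings, 66 stayed within the 95% interval of the reported value and 31 moved outside it, with no median changing sign. Positive elements held the site more often than negative ones, and members with a symmetric site were positive more often than those without, in all 11 settings including the reported one. Members with 2 or more sites were positive more often than those with 1 in 10 of 11. A q-value below 0.001 left 3704 positive and 143 negative elements without AP-1, with or without the site, from 5781 and 702. The positive share thus rose in that whole set as well as in members. For members it was 99.0%, and the median log2 folds were 1.43 and -1.52 (10 negative members). The share with the site was 26.5% in positive and 6.99% in negative elements. The positive share of members was 99.6% with and 98.5% without a symmetric site, and 99.0% with 1 site and 98.9% with more. With a site within 100 bp of the midpoint these shares, in the same order, were 95.1%, 16.3% and 6.84%. Those by symmetric site were 96.9% and 93.7%, and those by number of sites 94.6% and 99.1%, with both medians inside their intervals. Without any 1-base variant of the AP-1 site 234 members were left, with 91.9% positive, a median of 1.29, the site in 18.3% of positive elements, 8.02% of negative ones and 7.04% of regions 5 kb away, and 90.7% positive with 1 site. In elements up to 600 bp the median was 1.24, and the site was in 21.8%, 11.7% and 10.5%. Under a GC content of 50% it was in 26.8% of positive elements and 13.8% of regions. With no soft-masked base in the site these were 21.7% and 10.4%, and with under 10% of the element soft-masked the regions stood at 10.3%. A greater distance from coding starts, exclusion of the 4-base spacing and 1 element per related group moved no value outside its interval. Under a limit on q-value, on site position or on related groups, regions 5 kb away gave no value. The cause of these moves was not tested. No paired analysis was possible because the series has 1 group and the table no value per library. Depth limits single folds to an unknown degree.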
